A study of Mus musculus with 12 samples.

Results

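The genes described here are 34 mouse genes whose human counterparts are mutated in intellectual disability and whose products work on chromatin or in transcription. They were chosen by name from the probe annotation of the arrays, and a member counted as measured if a probe of it lay well above background on all 3 arrays of a circadian time. All 34 were measured, among 24090 genes in all, and each was well above background on all 12 arrays. Of 61 probes for these genes, 59 passed that filter, and the probe with the highest mean signal stood for its gene.

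Total RNA came from the hippocampus, the forebrain structure that forms spatial and episodic memory, of adult male wild-type mice. There were 12 mice, 3 at each of 4 circadian times, and each had its own 1-colour Agilent array. All of them were held in constant darkness: CT18 mice for 30 h, CT0 mice for 36 h, CT6 mice for 42 h and CT12 mice for 48 h, so circadian time and hours in darkness cannot be told apart. CT0 is the start of the subjective day, CT6 its middle, CT12 the start of the subjective night and CT18 its middle, and the study asked which hippocampal genes are under circadian control. The labels give neither strain nor age in weeks. Levels are given as log2 signal, the log2 of an array's processed spot intensity minus that array's 75th percentile, so that a level of 0 is the 75th percentile. Since each probe has its own brightness, levels were compared between libraries for the same probe and not between genes.

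Chromatin proteins set how tightly DNA is packed and which genes can be read. SWI/SNF and CHD remodellers move nucleosomes with the energy of ATP, methyltransferases and acetyltransferases add marks to histone tails, demethylases and deacetylases remove them, and cohesin holds DNA loops together. In the brain these proteins are needed for neuron differentiation and for the lasting changes of gene activity that follow experience. Many of the syndromes arise when a single copy of the gene is lost, so the dose of these proteins matters. In the circadian clock, CLOCK and BMAL1 recruit acetyltransferases such as p300 and CBP to their target genes, and deacetylases act with the clock's repressors.

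Before any comparison, the library with the label CT12 mouse 11 was unlike the rest. Its correlation with the other libraries across all genes was 0.945 to 0.965. The cerebellum list, of which 7 of 11 markers were measured, had a summed signal of 317 in it (with the 75th percentile as 1), against 2.17 to 18.41 in the other 11 libraries. For hippocampal pyramidal and forebrain neurons, 10 of 10 markers were measured, and their sum was 22.5 in CT12 mouse 11, against 76.8 to 133 elsewhere. The lower end of that range was CT12 mouse 10, in which the thalamus sum of 8 markers was 34.3, against 6.19 to 11.3 in the libraries other than CT12 mice 10 and 11. Choroid plexus markers (10 of 10 measured) summed to 140 to 372 in CT0 mouse 1, CT6 mouse 7, CT12 mouse 10, CT12 mouse 11 and CT18 mouse 14, against 2.21 to 3.28 in the remaining 7. Between 59.3% and 77.1% of spots per array were well above background, and none was saturated. CT0 mouse 1 was graded Evaluate by the scanner software, the others in range, and its local background was 100 intensity units, against 25 to 37. Without CT0 mouse 1, 0 members were called in any test. Of all genes, 6 were then called by the F test, against 43 with all libraries, and 12 against 32 for CT18 against CT6. The CT12 minus CT0 differences of Chd7, Zeb2, Foxp1, Tcf4 and Auts2 were then 0.83, -0.70, -0.66, -0.60 and -0.36. Such a drop in calls was not particular to CT0 mouse 1. The F test called 10 genes without CT0 mouse 2 and 4 without CT0 mouse 3, but 59 without CT12 mouse 11 and 120 without CT12 mouse 12. The clock repressor genes Ciart, Nr1d1 and Per2 varied with circadian time (adjusted p = 0.0095, 0.0191 and 0.0448 by limma's F test, and 0.0138, 0.0117 and 0.033 without CT12 mouse 11). Each circadian time kept the same array position on all 3 slides, so position and time cannot be told apart. The results below are given with and without CT12 mouse 11.

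**Figure D1:**
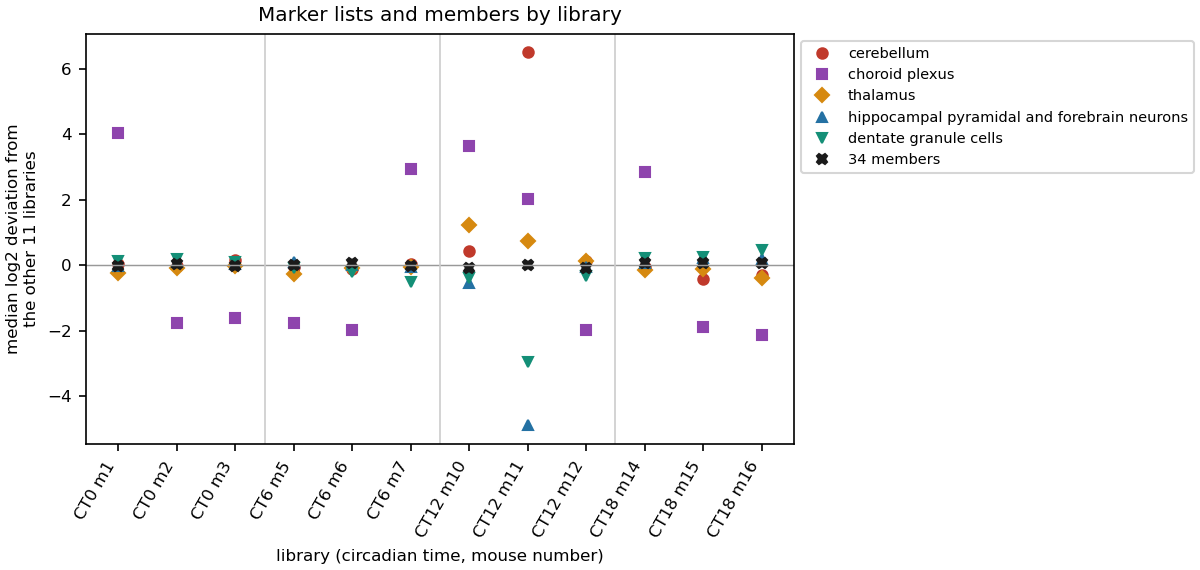
Median log2 deviation (vertical axis) of marker lists and of the 34 chromatin and transcription genes, by library (horizontal axis). For every library the reference is the mean of the 11 libraries other than CT12 mouse 11. CT12 mouse 11 has the cerebellum list at 6.50 and the pyramidal and forebrain list at -4.90, while the median of the 34 genes lies between -0.10 and 0.08 in every library.

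With all 12 libraries none of the 34 genes was called at an adjusted p under 0.05 (limma, Benjamini-Hochberg over all genes) by the F test across the 4 times, where 0.178% of all genes were called. The F test gave an unadjusted p under 0.05 to 3 members (8.82%), against 10.6% of all genes. The test for a 24-hour cosine also called 0 members, with 0.0706% of genes called, and 3 members had an unadjusted p under 0.05, against 9.72% of genes. Leaving out CT12 mouse 11, the F test and the cosine test again called 0 members, against 0.245% and 0.282% of genes. The unadjusted p was then under 0.05 for 6 members by the F test (17.6%) and for 7 by the cosine test (20.6%), against 12.3% of genes in both. With all libraries the share of members was thus no higher than that of genes, and without CT12 mouse 11 it was above it by 2 or 3 members.

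Between pairs of times, 0 members were called with all libraries. The share of all genes called was 0.0623% for CT12 against CT0, 0.133% for CT18 against CT6, 0.0208% for CT12 against CT6, 0.419% for CT18 against CT12 and 0% for CT6 against CT0 and for CT18 against CT0. At an unadjusted p under 0.05 there were 4 members for CT12 against CT0 (background 11.7% of genes), 2 for CT18 against CT6 (8.32%), 7 for CT12 against CT6 (11.8%) and 11 for CT18 against CT12 (16.6%). There were 0 for CT6 against CT0 (2.44%) and 1 for CT18 against CT0 (3.97%). The 11 members of CT18 against CT12 make up 32.4% of the list, the widest gap to the background among these pairs. Without CT12 mouse 11 the calls were 2 members for CT18 against CT6, Hdac4 and Zeb2, with 1.25% of genes called. For CT12 against CT0 (0.0291% of genes) and CT18 against CT12 (0.498%) there were again 0. At an unadjusted p under 0.05 there were then 3 members for CT12 against CT0 (8.39% of genes), 6 for CT18 against CT6 (13.8%) and 11 for CT18 against CT12 (13.8%).

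**Figure D2:**
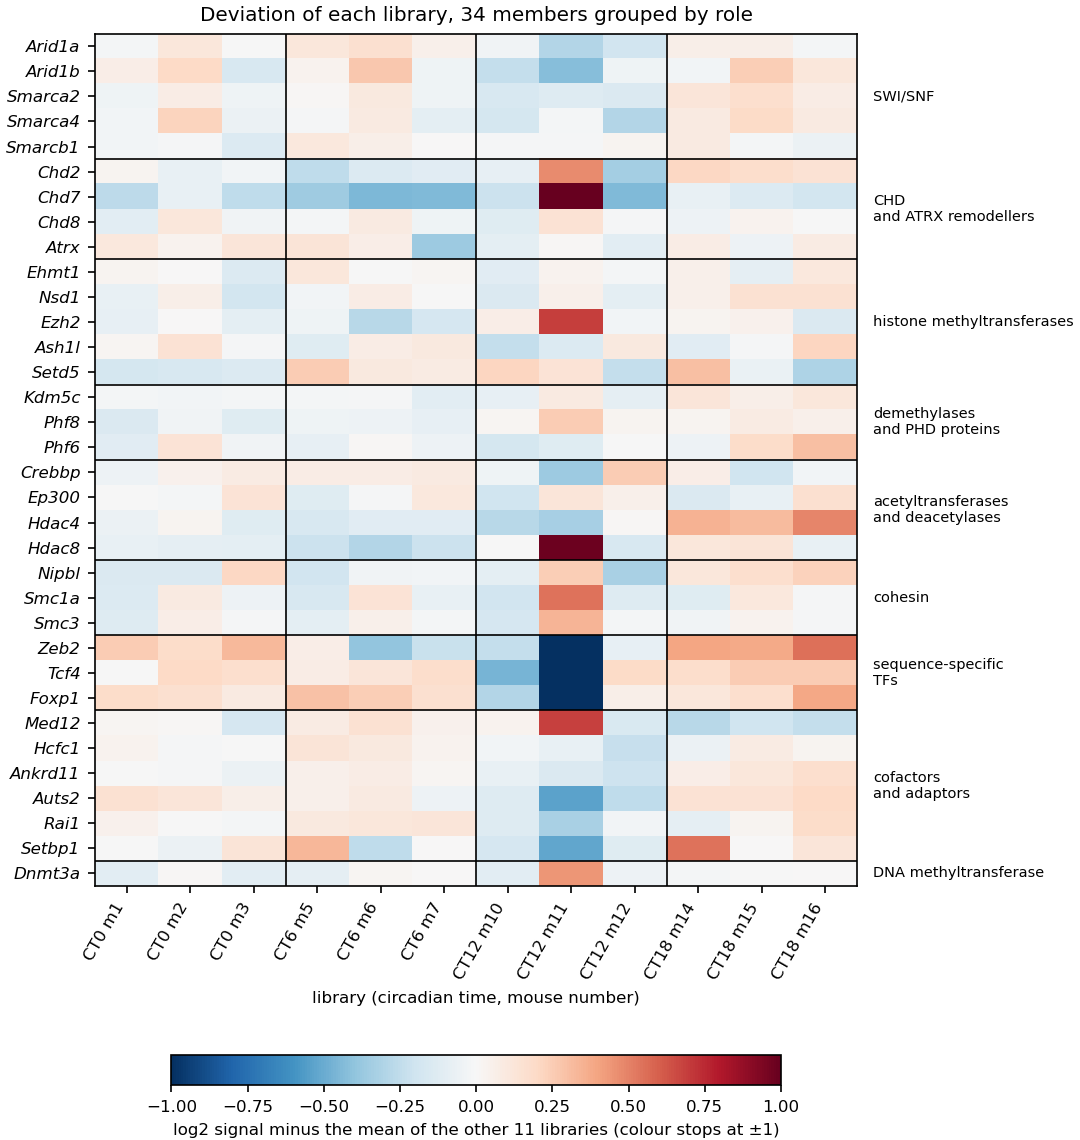
Heat map of the 34 genes (rows, grouped by role) in the 12 libraries (columns, by circadian time), coloured by log2 signal minus the mean of the other 11 libraries, with colours stopping at 1 on either side. Zeb2, Tcf4 and Foxp1 are far below and Chd7 and Hdac8 far above the other libraries in CT12 mouse 11, and Hdac4 is above the rest in all 3 CT18 libraries.

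Among the acetyltransferases and deacetylases, Hdac4 was the member that stood furthest from the others in time. Hdac4 encodes a class IIa histone deacetylase that moves between nucleus and cytoplasm with neuronal activity and restrains MEF2 factors. Its log2 signal was 0.87, 0.95 and 0.82 at CT0, 0.78, 0.83 and 0.82 at CT6, 0.68, 0.62 and 0.94 at CT12, and 1.25, 1.22 and 1.37 at CT18. All 3 CT18 libraries lay above all 9 others. The mean difference of CT18 minus CT6 was 0.47 ± 0.10 (SE), a 1.39-fold higher signal at CT18, with an adjusted p of 0.123. Leaving out CT12 mouse 11 does not touch either group but lowers the shared estimate of the spread, for Hdac4 to an SE of 0.09. The adjustment runs over all genes, of which 300 were then called for this pair, against 32 with all libraries. The adjusted p of Hdac4 was then 0.0416. The Hdac4 call was thin. Repeats added after the data were seen left out each of the remaining 11 libraries in turn as well. The 2 without CT12 mouse 10 or CT12 mouse 12 kept a single CT12 library. For this pair these 2 are the same fit, and a call in it says little. In the other repeats the call did not hold (adjusted p 0.0567 to 0.19). The difference stayed between 0.42 and 0.50 in all 11. With the slide as a block the adjusted p was 0.1, and within the slides the difference was 0.39, 0.55 and 0.47. CT18 minus CT12 was 0.54 (adjusted p = 0.0602, and 0.0586 with the slide as a block). A single probe measured Hdac4, at chr1:93829554-93829613 (mm9).

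Markers of dentate granule cells were also higher at CT18 than at CT6. Of the 8 listed, all measured, 6 were higher in every CT18 library than in every CT6 library, and their summed signal was 16.7 to 20.8 at CT18, against 10.70 to 13.86 at CT6. The median difference of that marker list was 0.53, and its part in the values of Hdac4 and Zeb2 was not tested. Choroid plexus RNA was present in a single library of each group. Pyramidal and forebrain markers summed to 116.4 to 132.5 at CT18 and 112.5 to 121.2 at CT6.

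Hdac8, an X-linked class I deacetylase that removes acetyl groups from the cohesin subunit SMC3, had a log2 signal of -0.92, -0.94 and -0.94 at CT0, -1.05, -1.12 and -1.05 at CT6, -0.86, 0.04 and -1.0 at CT12, and -0.75, -0.74 and -0.93 at CT18. CT12 mouse 11 was far above all others, 1.97-fold over their mean. Outside it the CT18 libraries lay above the CT6 libraries, by 0.27 ± 0.08 (SE) without CT12 mouse 11 (adjusted p = 0.146), while a second probe gave -0.05. The acetyltransferase genes Crebbp and Ep300, whose products CBP and p300 serve as coactivators of CREB and of many other factors, showed differences of -0.13 and -0.01 for CT18 minus CT6. The Crebbp libraries of CT18 were all below those of CT6, and the Ep300 groups overlapped.

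The probe letters are shown for 3 members, each for a feature of the probe that bears on what was measured. In the Crebbp probe (chr16:4084710-4084769) capitals mark 11 CAG triplets, and 3 of the 55681 probes on the array, this one included, hold as many or more. The Foxp1 probe (chr6:98880084-98880143) ends in a stop triplet, in capitals, in the only forward reading frame of it that is otherwise free of stops. The Hdac8 probe matches 2 or more separated stretches, since its 60 bases span 94900 bases of chrX:99503070-99597969. Coordinates are those of the array files on mm9, and the letters are printed as the files give them.
Crebbp: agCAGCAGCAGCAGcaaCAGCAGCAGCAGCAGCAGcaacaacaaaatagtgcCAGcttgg
Foxp1: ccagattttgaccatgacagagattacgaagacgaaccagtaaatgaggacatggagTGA
Hdac8: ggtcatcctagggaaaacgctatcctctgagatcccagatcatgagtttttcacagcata

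The sequence-specific transcription factors Zeb2, Tcf4 and Foxp1 gave the 3 largest negative differences of CT12 minus CT0, all of them smaller without CT12 mouse 11. Zeb2, a zinc-finger repressor mutated in Mowat-Wilson syndrome, had a log2 signal of 2.5, 2.43 and 2.57 at CT0, 2.33, 1.91 and 2.06 at CT6, 2.05, 1.17 and 2.19 at CT12, and 2.63, 2.61 and 2.77 at CT18. At CT18 all 3 libraries were above all others, and CT12 mouse 11 was the lowest. CT18 minus CT6 was 0.57 ± 0.23 (SE) with an adjusted p of 0.521 over all libraries, and 0.57 ± 0.11 with an adjusted p of 0.0498 without CT12 mouse 11. With a further library left out in turn, the call held in 1 of 11 repeats (adjusted p 0.0355 to 0.212), and with all libraries and the slide as a block the adjusted p was 0.293. A second Zeb2 probe, at chr2:44840038-44840097, gave -0.01 for the same difference, against 0.57 for the brighter probe at chr2:44842774-44842833. CT12 minus CT0 was -0.70 with all libraries and -0.38 without CT12 mouse 11, with adjusted p-values of 0.378 and 0.445, and both CT12 libraries that remained were below all 3 CT0 libraries.

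Tcf4, the basic helix-loop-helix factor of Pitt-Hopkins syndrome, had a log2 signal of 4.78, 4.96 and 4.94 at CT0, 4.85, 4.90 and 4.94 at CT6, 4.36, 3.73 and 4.96 at CT12, and 4.94, 5.01 and 5.02 at CT18. CT12 mouse 11 was lowest and CT12 mouse 10 next, while CT12 mouse 12 lay among the other times. Its CT12 minus CT0 difference was -0.55 with all libraries, -0.24 without CT12 mouse 11 and 0.06 without both CT12 mice 10 and 11. Foxp1, a forkhead repressor of forebrain neurons linked to speech and language delay, had a log2 signal of 3.74, 3.72 and 3.66 at CT0, 3.85, 3.8 and 3.72 at CT6, 3.31, 2.15 and 3.63 at CT12, and 3.68, 3.73 and 3.93 at CT18. Again CT12 mouse 11 was lowest and CT12 mouse 10 next. The CT12 minus CT0 difference of Foxp1 was -0.68 ± 0.30 (SE) with all libraries (adjusted p = 0.424) and -0.24 ± 0.12 without CT12 mouse 11 (adjusted p = 0.626). Further Foxp1 probes that passed the filter gave -0.69, -0.39 and -0.29 with all libraries, the last 2 from dimmer probes. For these 3 factors the median deviation was -1.20 in CT12 mouse 11 and -0.40 in CT12 mouse 10, against -0.08 to 0.22 in the other libraries. The pyramidal and forebrain marker list lay at -4.90 and -0.55 in those CT12 libraries, and its part in these values was not tested. In bulk tissue, fewer cells of a type and less RNA per cell cannot be told apart.

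Of the CHD and ATRX remodellers, Chd7 showed the largest departure of any member in a single library. Chd7 encodes the remodeller mutated in CHARGE syndrome. Its log2 signal was 1.78, 1.95 and 1.79 at CT0, 1.70, 1.61 and 1.61 at CT6, 1.82, 4.66 and 1.61 at CT12, and 1.95, 1.90 and 1.85 at CT18. The value in CT12 mouse 11 was 7.38-fold the mean of the other 11 libraries, which spanned 1.61 to 1.95. CT12 minus CT0 was therefore 0.86 ± 0.63 (SE) with all libraries and -0.12 ± 0.10 without CT12 mouse 11, a change of sign (adjusted p = 0.57 and 0.803). CT18 minus CT6 was 0.26, with no overlap between the groups and an adjusted p of 0.2 without CT12 mouse 11. The cerebellum list was also high in CT12 mouse 11, at 6.50, and its part in the value of Chd7 was not tested.

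Chd2, a remodeller gene of childhood epileptic encephalopathy, had a log2 signal of 1.12, 1.03 and 1.07 at CT0, 0.86, 0.97 and 0.99 at CT6, 1.02, 1.53 and 0.79 at CT12, and 1.28, 1.25 and 1.23 at CT18. Its CT18 libraries were above all others but CT12 mouse 11. CT18 minus CT6 was 0.31 ± 0.16 (SE) with all libraries, and 0.31 ± 0.08 without CT12 mouse 11 (1.24-fold, adjusted p = 0.684 and 0.111). Further Chd2 probes gave 0.31, 0.30 and 0.03, the last from a dim probe. Chd8, an autism gene whose product binds beta-catenin, and X-linked Atrx, which places histone H3.3 at repeats, had overlapping groups in CT18 against CT6, with differences of -0.02 and 0.09.

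Of the 5 SWI/SNF subunits, 4 had their lowest mean at CT12, as had 36.4% of all genes. Smarca4 and Smarca2 encode the alternative ATPases of the complex, BRG1 and BRM. Smarca4 had a log2 signal of 5.54, 5.77 and 5.51 at CT0, 5.56, 5.65 and 5.48 at CT6, 5.41, 5.55 and 5.30 at CT12, and 5.65, 5.75 and 5.65 at CT18. Its CT18 libraries were above those of CT12, by 0.26 (adjusted p = 0.254), or by 0.33 without CT12 mouse 11 (adjusted p = 0.186). Smarca2 had a log2 signal of 2.35, 2.45 and 2.35 at CT0, 2.40, 2.48 and 2.35 at CT6, 2.24, 2.27 and 2.26 at CT12, and 2.5, 2.54 and 2.46 at CT18. All 3 CT12 libraries were below all 9 others, CT12 mouse 11 included. CT18 minus CT12 was 0.24 ± 0.08 (SE) for Smarca2, with an adjusted p of 0.187 and, without CT12 mouse 11, 0.191. Arid1a and Arid1b, the DNA-binding subunits of Coffin-Siris syndrome, differed by 0.19 and 0.32 for CT18 minus CT12. For both, every CT18 library was above every CT12 library. With all libraries this was so for 11 of the 34 members (32.4%), against 10.7% of all genes. Smarcb1, the core subunit, had its lowest mean at CT0 and differed by 0.00 for CT18 minus CT12. None of these differences passed the adjusted threshold.

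**Figure D3:**
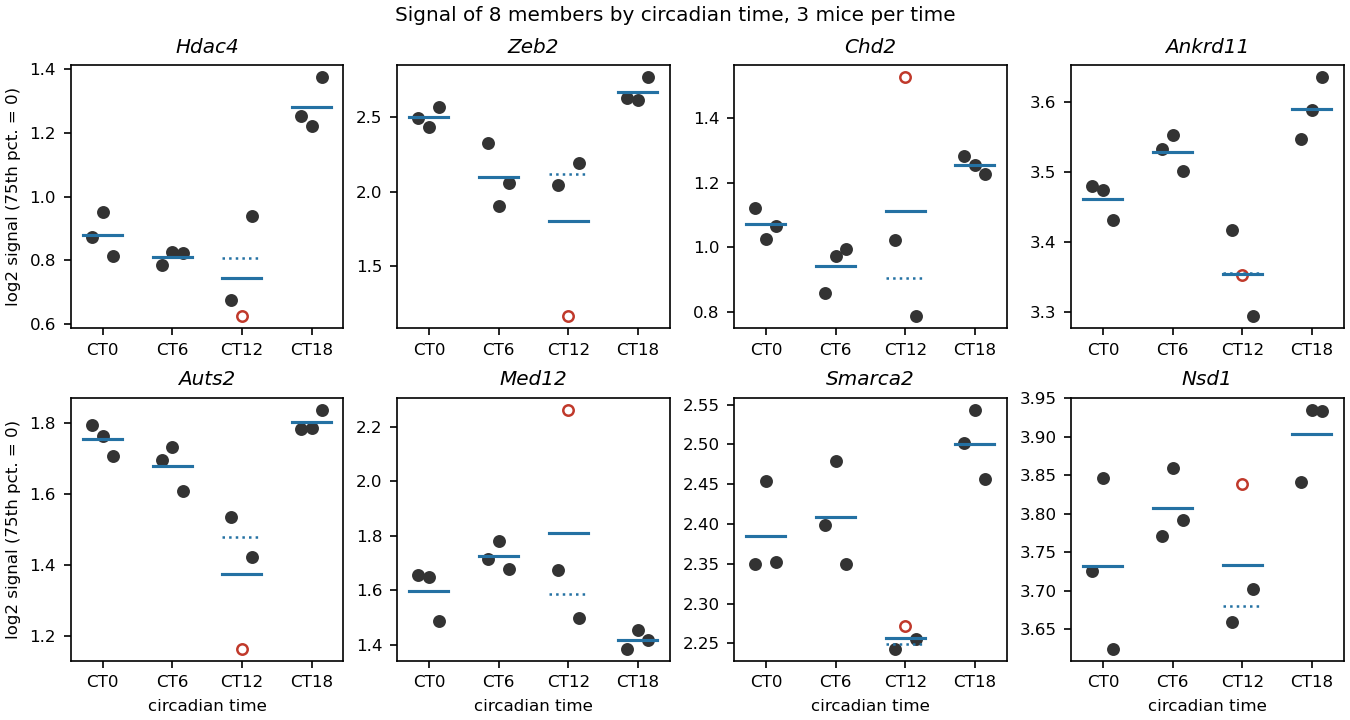
Log2 signal (vertical axis, with the array's 75th percentile at 0) of 8 genes by circadian time (horizontal axis), 1 point per mouse. Solid lines are means of 3 mice, dotted lines the CT12 mean without CT12 mouse 11, which is the open circle. The CT18 libraries of Hdac4 lie at 1.22 to 1.37, above the 9 others at 0.62 to 0.95.

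No histone methyltransferase gene passed the adjusted threshold in any test, with or without CT12 mouse 11. Nsd1, the H3K36 methyltransferase gene of Sotos syndrome, had a log2 signal of 3.73, 3.85 and 3.62 at CT0, 3.77, 3.86 and 3.79 at CT6, 3.66, 3.84 and 3.70 at CT12, and 3.84, 3.93 and 3.93 at CT18. CT18 exceeded CT12 by 0.17 ± 0.09 (SE, adjusted p = 0.37), and every CT18 library was above every CT12 library, narrowly, since the nearest were at 3.841 for CT18 and 3.839 for CT12. Ezh2, the catalytic subunit of Polycomb repressive complex 2, had a log2 signal of -1.81, -1.74 and -1.83 at CT0, -1.78, -2.0 and -1.89 at CT6, -1.68, -1.10 and -1.76 at CT12, and -1.71, -1.70 and -1.87 at CT18. CT12 mouse 11 was 1.62-fold above the mean of the other 11 libraries, and the range of the means was 0.17 without it. Ehmt1, which places the repressive H3K9 mark, Ash1l, a trithorax-type methyltransferase, and Setd5, a SET-domain protein, had differences of -0.16 to 0.01 for CT18 minus CT6, all with overlapping groups. A second Ehmt1 probe, nearly as bright (mean 1.58 against 1.68), gave -0.24 for that difference. Setd5 had a log2 signal of 2.64, 2.66 and 2.68 at CT0, 3.03, 2.89 and 2.88 at CT6, 3.0, 2.93 and 2.59 at CT12, and 3.08, 2.74 and 2.52 at CT18. All 3 CT6 libraries were above all 3 CT0 libraries, by 0.28 ± 0.15 (SE, adjusted p = 1), while the CT18 mice had an SD of 0.28. CT6 lay wholly above CT0 for 6 of the 34 members (17.6%), against 5.95% of all genes.

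The demethylase and PHD finger genes are all X-linked. Kdm5c, which removes H3K4 methylation, had a log2 signal of 2.01, 2.0 and 2.01 at CT0, 2.01, 2.02 and 1.93 at CT6, 1.95, 2.11 and 1.95 at CT12, and 2.14, 2.09 and 2.13 at CT18. CT18 was above CT6 in every library, by 0.14 ± 0.06 (SE) without CT12 mouse 11 (adjusted p = 0.389). Phf8, an H3K9 demethylase gene, differed by 0.10 for CT18 minus CT6 and by 0.18 for CT12 minus CT0, and the groups did not overlap in either. Further Phf8 probes, all dimmer, differed in sign. They gave -0.07, 0.255 and -0.119 for CT18 minus CT6, and -0.253, 0.329 and -0.071 for CT12 minus CT0. Phf6, the gene of Borjeson-Forssman-Lehmann syndrome, differed by 0.17 for CT18 minus CT6 with overlapping groups.

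For cohesin and its loader, the largest difference was that of Nipbl, the loader gene mutated in Cornelia de Lange syndrome. Nipbl had a log2 signal of -1.78, -1.77 and -1.45 at CT0, -1.82, -1.68 and -1.67 at CT6, -1.73, -1.42 and -1.94 at CT12, and -1.54, -1.49 and -1.43 at CT18. The CT18 libraries were above those of CT6, by 0.24 ± 0.14 (SE, adjusted p = 0.787), and by 0.24 ± 0.11 without CT12 mouse 11 (adjusted p = 0.378). The ring subunits Smc1a and Smc3 differed by 0.02 each for CT18 minus CT6. Smc1a, Smc3 and Nipbl all reached their highest value of any library in CT12 mouse 11, 1.46-fold, 1.27-fold and 1.185-fold over the mean of the others.

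Among cofactors and adaptors, Auts2 had its highest mean at CT18 and Med12 its lowest. Auts2, whose product joins a variant Polycomb complex that activates neuronal genes, had a log2 signal of 1.80, 1.77 and 1.71 at CT0, 1.70, 1.73 and 1.61 at CT6, 1.54, 1.16 and 1.42 at CT12, and 1.78, 1.79 and 1.84 at CT18. All 3 CT12 libraries were below all 9 others, and CT12 mouse 11 was the lowest. CT12 minus CT0 was -0.38 ± 0.10 (SE) with all libraries (adjusted p = 0.314) and -0.28 ± 0.08 without CT12 mouse 11 (adjusted p = 0.355), within slides -0.60, -0.29 and -0.26. CT18 minus CT12 was 0.43 (adjusted p = 0.104, and 0.0862 with the slide as a block), and a second Auts2 probe gave -0.45 for CT12 minus CT0.

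Med12, an X-linked subunit of the Mediator kinase module, had a log2 signal of 1.66, 1.65 and 1.49 at CT0, 1.72, 1.78 and 1.68 at CT6, 1.67, 2.26 and 1.5 at CT12, and 1.39, 1.45 and 1.42 at CT18. The CT18 libraries were below all others. CT18 minus CT6 was -0.31 ± 0.17 (SE), and -0.31 ± 0.08 without CT12 mouse 11 (adjusted p = 0.73 and 0.114), but a second Med12 probe, dimmer, gave 0.22. Ankrd11, a chromatin cofactor gene of KBG syndrome, had a log2 signal of 3.48, 3.47 and 3.43 at CT0, 3.53, 3.55 and 3.5 at CT6, 3.42, 3.35 and 3.29 at CT12, and 3.55, 3.59 and 3.64 at CT18. Its CT12 libraries were below all others and its CT18 minus CT12 difference was 0.24 ± 0.08 (SE, adjusted p = 0.187, and 0.201 without CT12 mouse 11). Hcfc1, an X-linked host cell factor, Rai1, the retinoic acid induced gene of Smith-Magenis syndrome, and Setbp1, which binds the SET protein and is mutated in Schinzel-Giedion syndrome, were lower in all CT12 libraries than in all CT0 libraries. Their CT12 minus CT0 differences were -0.11, -0.15 and -0.27. Dnmt3a, the de novo DNA methyltransferase gene, differed by 0.01 for CT18 minus CT6, and CT12 mouse 11 was 1.35-fold above the other libraries.

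**Figure D4:**
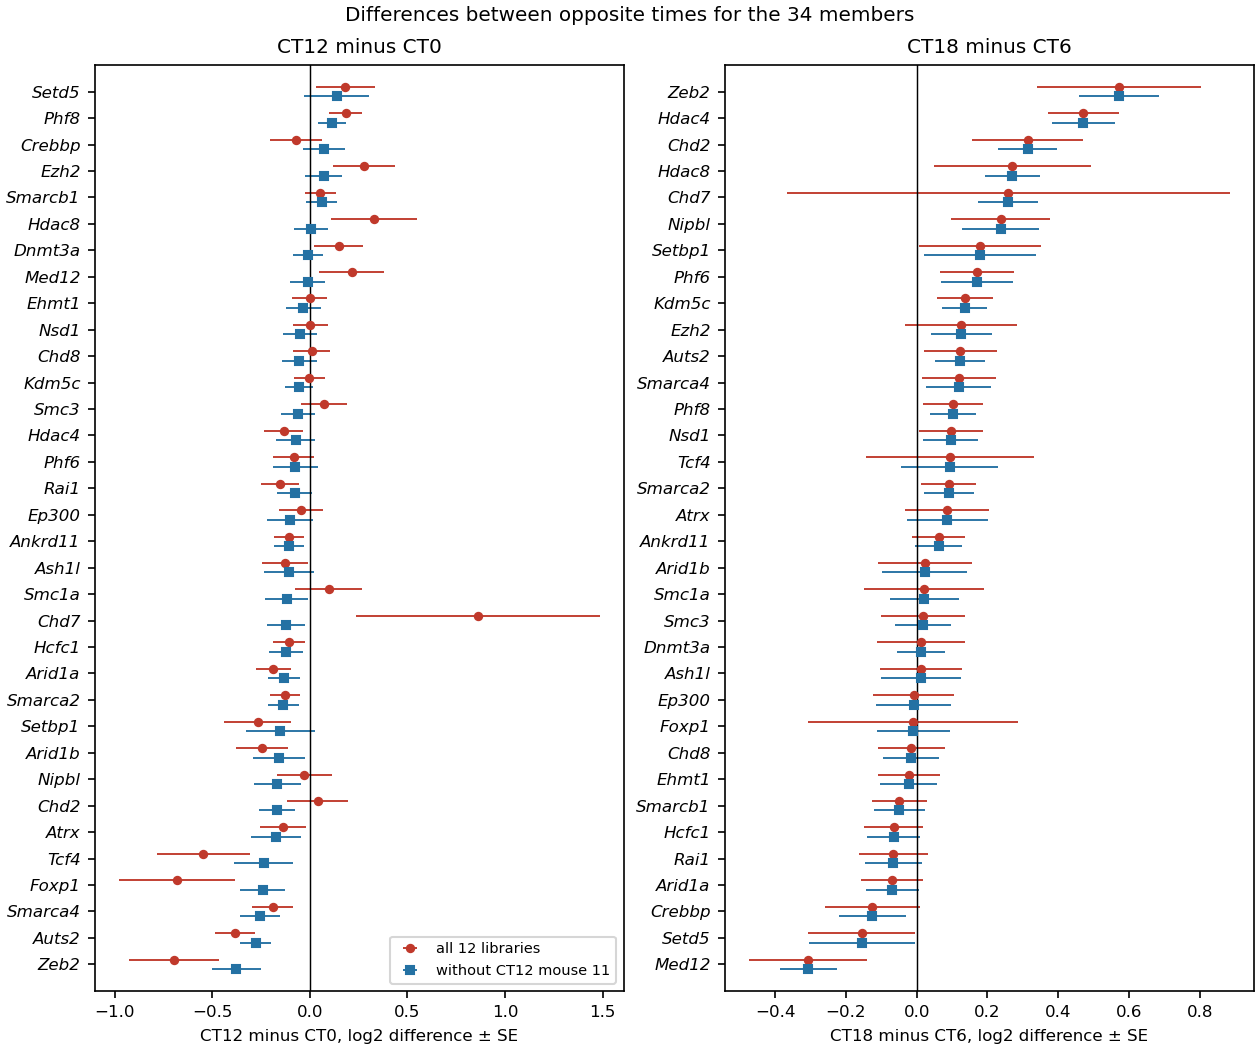
Log2 differences of CT12 minus CT0 (left) and CT18 minus CT6 (right) for the 34 genes (rows, sorted by the value without CT12 mouse 11), with bars of ± SE, for all 12 libraries (circles) and without CT12 mouse 11 (squares). For CT12 minus CT0, Chd7 is at 0.86 with all libraries and at -0.12 without, and for CT18 minus CT6 the values of both settings coincide while the bars shorten.

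Taken by library, CT12 mouse 11 was above the range of the other 11 libraries for 11 members and below it for 10. The background was 25.4% of all genes above and 30.3% below. Above were Chd2, Chd7, Chd8, Ezh2, Phf8, Hdac8, Nipbl, Smc1a, Smc3, Med12 and Dnmt3a, and below were Arid1a, Arid1b, Crebbp, Hdac4, Zeb2, Tcf4, Foxp1, Auts2, Rai1 and Setbp1. The largest departures were 2.88 for Chd7, -1.56 for Foxp1, -1.20 for Zeb2, -1.15 for Tcf4 and 0.98 for Hdac8 on the log2 scale. Of the remaining libraries, CT18 mouse 16 held the highest value for 10 members (29.4%), against 8.18% of all genes, and CT12 mouse 10 the lowest for 7 (20.6%), against 8.65% of all genes.

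The differences over the list were small and depended on the pair of times. Members had a median range of 0.24 between their 4 means, 1.18-fold, against 0.30 for all genes, 1.23-fold. The median SD within a time was 0.13 for members and 0.22 for all genes. CT18 held the highest mean for 14 members (41.2%), against 25.0% of all genes, and CT12 the lowest for 17 (50%), against 36.4% of all genes. Without CT12 mouse 11 these counts were 20 members (58.8%), against 26.2% of genes, and 25 members (73.5%), against 30.3% of genes. All these counts are for centring on the 75th percentile alone. Relative to all genes, the members' median of CT18 minus CT0 was then 0.068, with 29 members above the median of all genes. It was 0.003 with quantile normalization (18 members above) and 0.001 with the deposited values (17 above). For CT18 minus CT6 and CT18 minus CT12 it was 0.057 and 0.098 with quantile normalization, against 0.091 and 0.113.

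For CT18 minus CT6, the median was 0.07 over the members and -0.02 over all genes. Above 0 were 23 of 34 members (67.6%), against 46.2% of all genes. Every CT18 library exceeded every CT6 library for 10 members (29.4%), against 11.3% of all genes, and lay below them for 2, Crebbp and Med12 (5.88%), against 11.6%. The 10 were Smarca4, Chd2, Chd7, Kdm5c, Phf8, Hdac4, Hdac8, Nipbl, Zeb2 and Auts2. Within slides the members' median was 0.01, 0.11 and 0.05.

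For CT12 minus CT0, the median was -0.06 over the members and -0.02 over all genes. Above 0 were 13 of 34 members (38.2%), against 46.2% of all genes. The members' median was -0.09 without CT0 mouse 1, -0.03 without CT12 mouse 10, and 0.16 with arrays centred on their median, a change of sign that all genes shared (0.19). Without CT12 mouse 11 it was -0.10 over the members and -0.01 over all genes. Above 0 were then 6 of 34 members (17.6%), against 47.9% of all genes. The counts that follow start with all libraries. CT12 lay wholly below CT0 for 10 members (background 7.77%) and wholly above for 2 (background 5.18%). Without CT12 mouse 11 this was so for 13 (background 11.6%) and 2 (background 8.39%). Phf8 and Smarcb1 were the members wholly above. Within slides the members' median was -0.01, -0.05 and -0.06.

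CT18 minus CT12 gave the widest shift, with a median of 0.12 over the members and 0.00 over all genes, and 0.14 and -0.02 without CT12 mouse 11. With all libraries 22 of 34 members (64.7%) were above 0, against 50.6% of all genes. Without CT12 mouse 11 these were 29 of 34 members (85.3%), against 47% of all genes. The 3 CT18 libraries then lay above both CT12 libraries for 19 members (55.9%), against 15.9% of all genes, and below for Med12 alone, against 11.2% of genes. The pairs share libraries, so their values are not separate evidence. Centring each array on its median in place of its 75th percentile moved the median of all genes to 0.19 for CT12 minus CT0 and to 0.08 for CT18 minus CT6. Relative to all genes, the members' median was -0.03 and 0.09 under both scalings. Both shift every gene of an array by the same amount, so these values had to be equal and are no check of the scaling. With quantile normalization, which can shift genes by different amounts, the members' median relative to all genes was -0.09 and 0.06.

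Of 75 other chromatin and transcription genes, a list written from general knowledge with earlier results of these data known, 74 were measured. None was called by the F test, the cosine test or any pair of times, with or without CT12 mouse 11. Their median was -0.03 for CT12 minus CT0, with 30 above 0, and 0.00 for CT18 minus CT6, with 37 above 0. For CT18 minus CT12 it was 0.05, with 47 of 74 above 0. These values are with all libraries, where 22 of 34 members (64.7%) and 50.6% of all genes were above 0 for that pair.

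Promoter sequence from RefSeq (GRCm38.p6), from 250 bases before to 50 after the start of a gene, was at hand for 25 of the 34 members. The members' windows were rich in CpG, with a median of 29 CpG and 66.3% G and C, against 8 CpG and 53.3% over 27025 genes. These genes had 32851 windows. For a gene with several, the highest CpG count and the highest share of G and C were taken separately. A motif in any window of a gene counted. TGACG, the half-site of the cAMP response element at which CREB binds, was searched on both strands and was found for 8 of 25 members (32.0%), against 23.0% of all genes. They were Ankrd11, Arid1b, Atrx, Foxp1, Hdac4, Phf8, Smarcb1 and Zeb2. TGACG itself holds a CpG, and the part of the members' CpG content in that share was not tested. The E-box CACGTG of CLOCK and BMAL1 was found for Dnmt3a alone, against 8.09% of all genes, and AGGTCA, the half-site of REV-ERB and ROR receptors, for 4 members, against 18.1% of genes. The D-box, TTATGTAA or TTACGTAA, was found for 0 of 25, against 1.23% of genes. These letters are descriptions of the windows, and matches of different motifs were allowed to overlap.

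The Hdac4 window is shown since that member had the smallest p for CT18 against CT6. It holds TGACG at 3 places, 2 of them in the 250 bases before the start, given here on the minus strand of chr1:92180342-92180591 (GRCm38.p6) with those letters, or their reverse complement, in capitals.
Hdac4: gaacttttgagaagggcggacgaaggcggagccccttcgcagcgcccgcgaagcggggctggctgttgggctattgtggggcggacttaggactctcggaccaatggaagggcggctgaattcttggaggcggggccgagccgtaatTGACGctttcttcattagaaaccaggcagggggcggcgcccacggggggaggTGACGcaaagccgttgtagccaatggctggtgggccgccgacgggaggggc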

How the data were processed

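Total RNA from 12 hippocampi was labelled with Cy3 and hybridised to 1-colour Agilent arrays, per the labels. The deposited intensity of each spot is the processed signal of Agilent Feature Extraction (version 10.7.3.1 per the file headers), corrected for background but not scaled between arrays. The deposited table of log2 values served as an alternative; how the authors scaled it is not given in the sources used here, and its columns share the same quantiles. Probe coordinates are on mm9.

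Outlier spots were dropped, and spots of a probe averaged. Log2 values were centred on each array's 75th percentile. Of 55681 probes, 33966 passed the background filter, leaving 24090 genes, 16094 with a RefSeq symbol (GRCm38.p6). R 4.3.3 with limma 3.58.1 gave an F test, a 24-hour cosine test and 6 pairwise contrasts over the 12 arrays, adjusted by Benjamini-Hochberg over all genes, with a threshold of 0.05. The fit was tested on simulated data. The number of arrays limits the precision.

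Values in every library are given for members called by any test, for those with the smallest F test p without CT12 mouse 11 (up to 14), for the 4 with the largest difference between each pair of opposite times, and for the 6 farthest out in CT12 mouse 11. The values of Setd5 are given outside this rule. Members, lists and this rule were chosen with earlier results of these data known. Alternatives were other scalings, background correction, filters, probe means, slide as a block and leaving out libraries.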

Additional observations from a re-analysis of the deposited data

How the results depend on the processing

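Mouse numbers in the labels are unique to each library and pair no samples. Each slide held 1 library of every time, and the slide was fitted as a block. Counts of members called were 0 in the tests as described, and the exceptions were few. The F test called 1 member (Hdac4) without CT12 mouse 12, when 120 of all genes were called, against 43 with all libraries. Leaving out 1 library at a time thus gave 0 to 1 members. CT18 against CT6 called 2 members (Hdac4 and Zeb2) without CT12 mouse 11, for a range of 0 to 2. Leaving out CT12 mice 10 and 11 was a setting chosen after seeing the data. It kept a single CT12 library, so a count of members called says little there. The other 4 pairs of times together called 1 (Hdac4) with quantile normalization, with normexp background correction and with the deposited table. In those settings 124 to 178 calls were made over all genes. When 1 library was left out the pairs called 0 to 3 members. The 3 (Hdac4, Zeb2 and Tcf4) came without CT12 mouse 12, which left CT12 mice 10 and 11. There were then 1335 calls over all genes, against 106 with all libraries. CT12 against CT0 and the cosine test called 0 members in all alternatives. With slide as a block 0 members were called in any test, where 0% to 0.486% of all genes were called. Leaving out the 5 libraries with choroid plexus RNA (CT0 mouse 1, CT6 mouse 7, CT12 mice 10 and 11 and CT18 mouse 14) was also chosen later. It left CT12 mouse 12 as the only library of its time, so a count of members called says little there. Without CT12 mouse 11 the CT12 minus CT0 difference of Chd7 was -0.12, without CT12 mice 10 and 11 it was -0.23, and without those 5 libraries it was -0.26, against 0.86 with all libraries and -0.12 to 1.40 over the repeats that leave out 1 library. That of Tcf4 was 0.064 and 0.0073 in the last 2 settings, against -0.55. The causes were not tested. The number of all genes called moved with the setting, from 0 to 120 for the F test (43 as reported), from 0 to 68 for the cosine test (17), from 0 to 80 for CT12 against CT0 (15), from 0 to 300 for CT18 against CT6 (32) and from 0 to 1335 over the other 4 pairs (106). All members were well above background on every array. The members' median of CT12 minus CT0 was -0.10 to -0.03 over the repeats that leave out 1 library.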
